A study of Mus musculus with 9 samples.

Results

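All glioma arrays of a mouse expression series were compared with all of its normal arrays, which divides the 9 arrays into 5 glioma arrays and 4 normal arrays and leaves none out. The glioma side held 3 arrays titled EZH2-KO-MADM, from brain tumour tissue with the genotype EZH2 knocked-out, and 2 arrays titled MADM-CELL, from glioma cells whose labels name no genotype. The normal side held 2 arrays titled ASTROCYTE and 2 titled NSC, from wild-type C57BL/6J brain astrocytes and neural stem cells. Both glioma groups came from mice of the Mosaic Analysis with Double Markers (MADM) background, so strain and tumour state cannot be told apart, and only the tissue group is labelled as lacking Ezh2. The labels used here do not give the ages of the animals, the driver mutations of the tumours or the Cre line behind the deletion. They also leave out the culture conditions and whether same-titled arrays came from separate animals or cultures. The p-values therefore measure the spread between these arrays, which may be technical, and count same-titled arrays as independent. In the pooled comparison that spread also holds the differences between tissue and glioma cells and between astrocytes and NSC.

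MADM is a genetic method in which a rare exchange between paired chromosomes makes single cells that carry a mutation and a fluorescent colour, beside wild-type sister cells of another colour, so that a tumour can be followed from its first mutant cells. The published MADM glioma model arises from loss of the tumour suppressors p53 and NF1 and grows from oligodendrocyte precursor cells, the dividing cells that make myelinating oligodendrocytes. p53 is a transcription factor that switches on genes for cell-cycle arrest and cell death, NF1 restrains RAS signalling, and EZH2 is the enzyme of Polycomb repressive complex 2 (PRC2), which places a repressive methyl mark on histone H3.

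Total RNA, 200 ng per array, was labelled with Cy3 and hybridised to single-colour Agilent arrays. Between 60.1% and 65.7% of the spots on each array were well above background and none was saturated; the small number of arrays limits the precision. Levels are given as log2 signal minus the array's 75th percentile of log2 signal, so that a level of 0 lies at that percentile and a difference of 1 is 2-fold; each gene is represented by its brightest tested probe, and probe positions are on the mouse build mm9. Levels of different probes are not comparable. Arrays of the same title differed by a root mean square of 0.83 to 1.03 over the probes that represent the tested genes. The 6 cell arrays lay on one slide and were scanned with one software version, and the 3 tissue arrays lay on another, so slide and tissue cannot be told apart; differences among the 6 cell arrays alone, from a fit with a mean for each normal cell type, are given for the main genes. In bulk samples fewer cells of a type and less RNA per cell cannot be told apart.

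The cell labels were set against defining markers. Aldh1l1, an astrocyte enzyme, lay at 6.75 and 5.47 in the astrocytes, at 6.54 and 4.39 in the NSC, at 1.91 to 3.77 in tumour tissue and at -3.20 and -2.80 in the glioma cells. Gfap, the astrocyte filament, lay at 6.42 and 3.91 in the astrocytes but at 1.85 and -6.07 in the 2 NSC arrays. Sox10, which drives oligodendrocyte-lineage genes, lay at -3.18 and -3.71 in the astrocytes and at 4.70 and 2.03 in the NSC, so the NSC cultures expressed precursor genes as well. The 22 microglia and macrophage markers averaged 2.30 and 3.04 in the astrocytes, near the 1.75 to 2.94 of tumour tissue, and -4.35 and -4.25 in the glioma cells. The normal side thus held unlike cultures, with microglia marker signal in the astrocytes and oligodendrocyte-lineage signal in the NSC.

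Ezh2, the gene deleted in the tissue group, lay at 1.91, 1.62 and 1.48 in the 3 tissue arrays, at 3.03 and 3.24 in the glioma cells, at 0.19 and -0.58 in the astrocytes and at 2.14 and 3.38 in the NSC. The groups overlapped, and the glioma arrays exceeded the normal arrays by 0.97 (SE 0.81, limma adjusted p = 0.570); among the 6 cell arrays the difference was 1.85 (adjusted p = 0.0803). Against the astrocytes alone the difference was 2.45 (adjusted p = 0.0405) and against the NSC alone it was -0.51 (adjusted p = 0.728), so its direction depends on the normal cell chosen. The probe lies at chr6:47480307-47480366 on the reverse strand. Whether the deletion removes the probed sequence is not known here, so these values check nothing about the deletion. Trp53 differed by -0.39 (adjusted p = 0.550) and Nf1 by -0.63 (adjusted p = 0.383), and their arrays overlapped.

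Of 25398 genes tested, 148 were called between the 5 glioma and the 4 normal arrays (0.583%), at a limma adjusted p under 0.05 and at least 2-fold. Of these, 101 were higher (0.398%) and 47 were lower (0.185%) in the gliomas. At an unadjusted p under 0.05 there were 4040, of which 1879 were higher and 2161 lower, and the median difference over all genes was -0.06. All 148 had the same sign in each of the 4 differences between a glioma group and a normal group, against 28.4% of all genes, and none had overlapping arrays, which the choice of genes on these arrays largely fixes. Among the 6 cell arrays, a fit with a mean for each normal cell type called 1648 genes (6.49%), of which 107 were among the 148, whereas the 2-group fit called 143, of which 25 were among the 148. Scaling moved the balance: 97 were higher and 64 lower with each array centred on its median, and 58 and 16 with the authors' unscaled values.

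The count also depended on single libraries. It was 12 without astrocyte array 1, 17 without astrocyte array 2, 13 without tissue array 3, 50 without tissue array 1, 80 without tissue array 2, 71 without glioma cell array 2 and 239 without NSC array 1. Only 9 genes were called in every fit that left out 1 of the 9 arrays, namely Sptb, Nxf3, Pnlip, Pcdhb5, Fam89a and Cntn4 among the higher genes and Foxb1, Otx1 and Gm3014 among the lower ones.

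A second criterion asked that each of the 4 differences between a glioma group and a normal group pass by itself, in one direction. It was met by 59 higher genes (0.232%) and 39 lower genes (0.154%), of which 38 and 19 were also called over the pooled arrays. The 4 differences share arrays and are no independent repeats. The genes just inside the limit were Tead2, Otx2 and Pcdhb7, with a largest adjusted p of 0.0493, 0.0494 and 0.0499, and Cox6b1 and Tnfrsf13c, at 0.0521 each, were just outside. When the largest of a gene's 4 p-values was adjusted over all genes, 4 passed, namely Foxb1 at 0.00946, Sptb at 0.0252, and Pnlip and Fam89a at 0.0440 each. By the bare criterion that every glioma array lies beyond every normal array, 725 genes were higher (2.85%) and 965 lower (3.8%). With median centring these were 602 and 1147, and with the unscaled values 723 and 545.

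The genes furthest above the normal cells in both glioma groups have varied known roles. Nxf3, an X-linked relative of the main mRNA export receptor that is known from testis, lay at 2.33, 0.99 and 3.58 in tumour tissue and at 4.15 and 4.16 in the glioma cells, against -7.64 and -7.62 in astrocytes and -6.44 and -4.32 in NSC. It was well above background on every glioma array and on 1 normal array, and was higher by 9.55 as measured (SE 0.87, adjusted p = 0.00488), by 10.66 among the 6 cell arrays, and by 8.31 over all arrays with dim values raised to each array's background limit. Sptb, the red cell form of beta spectrin, which lines the inner face of the cell membrane, lay between 0.40 and 0.59 in tissue, at 0.83 and -0.34 in glioma cells, and between -5.69 and -4.97 in all 4 normal arrays. It was higher by 5.85 (SE 0.30, adjusted p = 0.000114) and had the smallest p of the higher genes named here. Among the cell arrays Sptb differed by 5.68 (adjusted p = 0.00887). Red blood cell transcripts were high in tissue only: the alpha globin Hba-a2 lay at 2.93 to 6.56 there, against -2.69 and -2.33 in the glioma cells and -3.50 to -2.19 in the normal cells. Their part in the Sptb result was not tested.

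Tbx1, a T-box transcription factor of the pharyngeal arches, lay between -1.99 and -0.23 on the glioma arrays and between -7.83 and -4.93 on the normal arrays, and was higher by 5.96 (SE 0.64, adjusted p = 0.0142). Ddx43, an RNA helicase known as a cancer-testis antigen, lay between 0.35 and 2.48 against -7.64 to -3.17, and was higher by 6.76 (SE 0.83, adjusted p = 0.0181). Clic5, which tethers the membrane to the actin skeleton, was higher by 6.75 (SE 1.00, adjusted p = 0.0337), Fam89a by 5.10 (SE 0.37, adjusted p = 0.00183) and Bricd5 by 6.28 (SE 0.94, adjusted p = 0.0337). Gjc3, a connexin of myelinating glia, lay at -0.31, 2.27 and 2.07 in tissue, at 4.01 and 3.16 in glioma cells, and between -5.39 and -1.87 in the normal cells, a difference of 5.46 (SE 0.96, adjusted p = 0.0485). Mc3r, a melanocortin receptor, passed each of the 4 group differences but not the pooled test (5.67, adjusted p = 0.0803), with the glioma cells at 2.18 and 2.13 and the tissue at -3.03 to -1.13. Tbx1, Ddx43, Clic5 and Mc3r were well above background on 1 normal array each, and with dim values raised their differences were 4.31, 6.10, 6.11 and 4.80. Among the cell arrays Tbx1 differed by 5.82 (adjusted p = 0.0300), Ddx43 by 7.58 (0.0171), Clic5 by 5.77 (0.0567), Fam89a by 5.16 (0.00844) and Bricd5 by 7.58 (0.0115). The glioma and normal arrays did not overlap for any of the 7 genes, and the spread within the normal side was largest for Ddx43 and Clic5, where astrocyte array 2 stood highest.

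Where no normal array had a signal well above background, only a lower bound can be given, taken against the dimmest signal that still counted as above background on each array. Pnlip, pancreatic lipase, lay at 2.74 to 4.07 in tissue and at 0.41 and 1.48 in glioma cells, and was at least 246-fold higher (adjusted p = 0.00364; measured means differ by 9.34). Slc38a5, a transporter of neutral amino acids, was at least 28.7-fold higher (adjusted p = 0.0414), with tissue at 0.58 to 1.19 and glioma cells at -3.53 and -2.22. Cntn4, a neuronal adhesion molecule, was at least 15.2-fold higher (adjusted p = 0.00488). Among the cell arrays the measured differences of Pnlip, Slc38a5 and Cntn4 were 7.80, 3.86 and 4.31 (adjusted p = 0.00887, 0.0317 and 0.0142). The bounds here and below hold for the main processing only. Under other processing settings the smallest differences of these genes were 5.80, 2.87 and 1.98. Those of genes bounded further below were -1.15 for Eda2r, -1.23 for Otx1, 1.61 for Kirrel2 and 0.77 for Erbb3. Cldn5, the tight junction protein of brain endothelium, had a bound of 24.3-fold but came from tissue alone: it lay at 2.23 to 3.35 there and at -5.67 and -7.26 in the glioma cells, within the range of the normal arrays, and did not pass the test (adjusted p = 0.277).

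**Figure D1:**
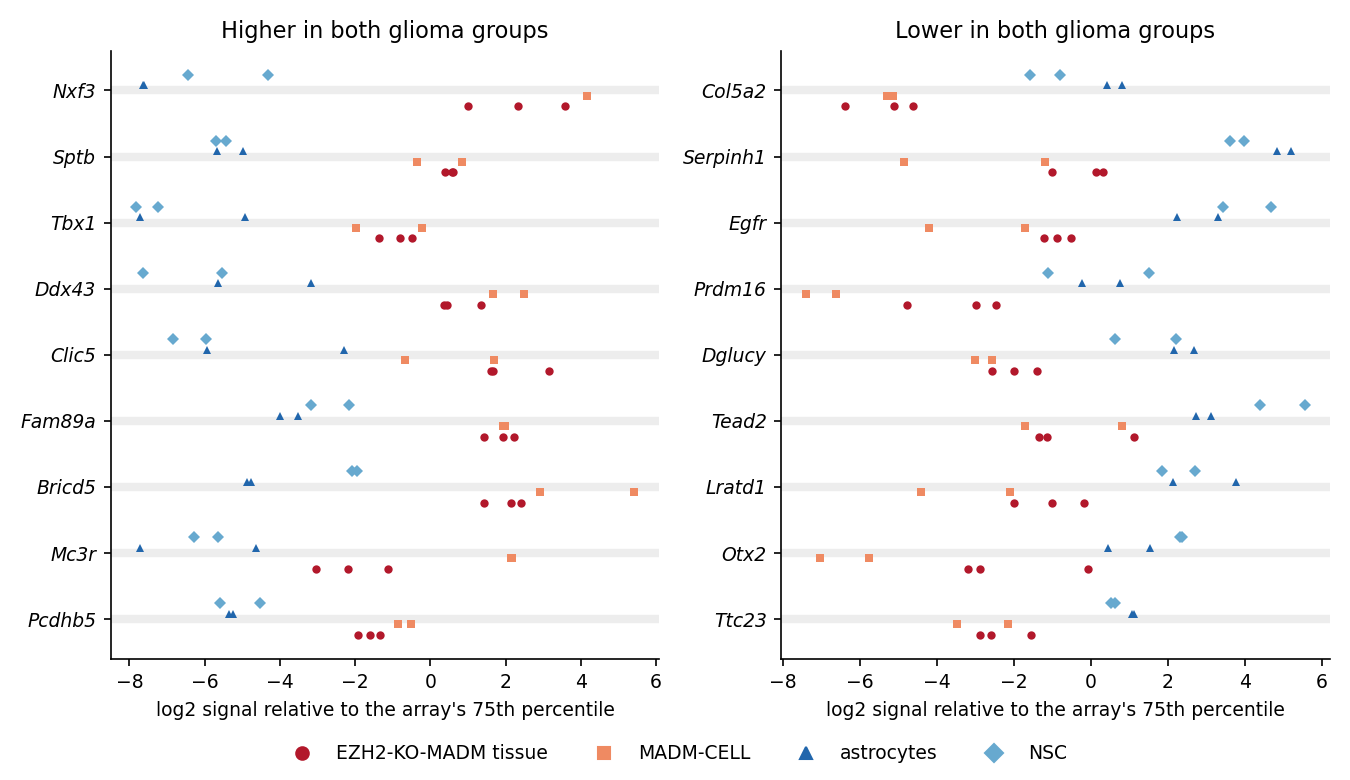
Levels of 9 leading higher genes (left) and 9 leading lower genes (right) on each of the 9 arrays, as log2 signal relative to the array's 75th percentile (horizontal axis). Each symbol is 1 array; red circles are tumour tissue, orange squares glioma cells, dark triangles astrocytes and light diamonds NSC. In every row the 5 glioma arrays lie on one side of the 4 normal arrays.

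The lower genes included genes of collagen production and a growth factor receptor. Col5a2, a chain of fibrillar type V collagen, lay between -6.38 and -4.62 on the glioma arrays, of which 1 was well above background, and between -1.57 and 0.82 on the normal arrays, a measured difference of -5.03 (SE 0.54, adjusted p = 0.0142), and -4.97 with dim values raised to each array's background limit. Serpinh1, the collagen chaperone of the endoplasmic reticulum, lay at -1.01 to 0.32 in tissue, at -1.20 and -4.85 in glioma cells and at 3.61 to 5.18 in normal cells (difference -5.72, SE 0.98, adjusted p = 0.0455). Among the cell arrays Col5a2 and Serpinh1 differed by -4.94 and -7.42 (adjusted p = 0.00741 and 0.0208). Col8a1, a short-chain collagen of basement membranes, was not above background on any glioma array and had a bound of 20.7-fold lower, but the NSC at -4.75 and -3.38 stood far below the astrocytes at 1.69 and 1.78, and the pooled test was not passed (adjusted p = 0.122). Lamb2, a laminin chain, met the 4-difference criterion (difference -5.02, pooled adjusted p = 0.105). Fibroblast and meningeal markers also vary across these arrays: the 13 tested averaged 1.18 and 4.63 in the astrocytes, -0.22 and -1.54 in the NSC, -0.78 to 1.02 in tissue and -1.86 and -2.99 in glioma cells, with a median difference of -2.26 and no member called. Their part in the collagen results was not tested.

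Egfr, the receptor for epidermal growth factor, lay at -0.88, -0.51 and -1.22 in tumour tissue, at -4.21 and -1.71 in glioma cells, at 2.24 and 3.31 in astrocytes and at 3.44 and 4.68 in NSC. The groups were well apart and Egfr was lower by 34.8-fold (difference -5.12, SE 0.78, adjusted p = 0.0352), with its other probes differing by -4.98 and -3.96 and a difference of -6.37 among the 6 cell arrays (adjusted p = 0.0196). The call was kept in 3 of the 9 fits that left out an array, with differences from -5.51 to -4.49. The other members of the receptor family were divided. Erbb2, the partner receptor without a ligand of its own, lay between -3.23 and -1.71 in the gliomas against -0.29 to 0.33 in the normal cells (difference -2.31, SE 0.34, adjusted p = 0.0331; -2.47 among the cell arrays). Erbb3, a receptor for neuregulins, was above background on all glioma arrays and on no normal array, a bound of at least 3.32-fold higher that missed the pooled threshold (adjusted p = 0.0542). Epidermal growth factor is a usual additive of neural stem cell cultures, and the labels give the medium of neither the normal cells nor the glioma cells.

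Pdgfra, the platelet-derived growth factor receptor of oligodendrocyte precursors, lay at 6.08, 5.14 and 6.28 in tissue, at 4.59 and 5.01 in glioma cells, at 3.23 and 1.20 in astrocytes and at 4.10 and 3.49 in NSC. All glioma arrays exceeded all normal arrays, but the difference of 2.42 (SE 0.61) did not pass (adjusted p = 0.114), and NSC array 1 at 4.10 stood just below glioma cell array 1.

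All 20 target genes of p53 that were tested had a negative difference, with a median of -2.11 over the list beside -0.06 over all genes, and 9 of the 20 had no overlap of arrays in the lower direction, against 3.8% of all genes. The mean level of the list was 0.06, 0.52 and 0.13 in tissue and 0.09 and -0.16 in the glioma cells, a narrow range, while the astrocytes stood at 2.51 and 3.63 and the NSC at 0.96 and 2.07. The median was -1.72 among the 6 cell arrays, -2.90 against the astrocytes alone and -1.08 against the NSC alone, and between -2.67 and -1.37 when any 1 array was left out. Of the members 3 were called, against 0.185% of all genes in that direction, and 13 of 20 passed an unadjusted p of 0.05; the level of Trp53 mRNA itself did not differ detectably, as given above.

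Eda2r, a death receptor of the tumour necrosis factor family, was above background on all 4 normal arrays, at -5.10 to -2.20, and on no glioma array, at least 5.21-fold lower (adjusted p = 0.0230). Btg2, a p53-induced inhibitor of proliferation, lay at -1.33 to -0.92 in tissue and at -0.01 and -0.08 in glioma cells, against 1.50 to 3.40 in normal cells (difference -3.44, SE 0.47, adjusted p = 0.0252). Ccng1, cyclin G1, which recruits a phosphatase to MDM2, lay at -0.02, 0.10 and 0.23 in tissue and at 1.04 and 0.40 in glioma cells, against 3.67 and 4.99 in astrocytes and 2.17 and 3.21 in NSC (difference -3.16, SE 0.52, adjusted p = 0.0413). For these 3 genes no glioma array reached the lowest normal array, and among the 6 cell arrays the differences were -3.94, -2.80 and -2.79 (adjusted p = 0.0429, 0.0536 and 0.0460).

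Other members had the same order of arrays but did not pass. Trp53inp1, a stress-induced nuclear protein, differed by -2.42 (adjusted p = 0.0558), Tnfrsf10b, the receptor for the death ligand TRAIL, by -3.85 (adjusted p = 0.0594) and Aen, an apoptosis-enhancing nuclease, by -1.86 (adjusted p = 0.0889), each without overlap. Cdkn1a, which encodes the cell-cycle inhibitor p21, lay at 0.93, 2.32 and 0.33 in tissue and 1.23 and -0.33 in glioma cells, against 3.51 and 5.73 in astrocytes and 0.04 and 3.04 in NSC; NSC array 1 lay among the gliomas, and the difference of -2.18 was not called (SE 1.02, adjusted p = 0.334), with the other probes of the gene at -5.06 to -2.80. Mdm2, the ubiquitin ligase that degrades p53, differed by -0.83.

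The sequences before the start of 3 of these genes are shown because they hold the letters that p53 is known to bind, in RefSeq's GRCm38.p6, read 5′ to 3′ on the strand of the gene and ending at the base before the start, with every p53 consensus decamer in capitals. The decamer reads the same on both strands, so a single scan covers both, and no other motif was searched. Cdkn1a is given at the upstream of its 2 listed starts, chr17:29090729-29090978 on the plus strand, and is the only listed target with paired decamers. Ccng1, at chr11:40755287-40755536 on the minus strand, is the called gene with a decamer, and Aen, at chr7:78895808-78896057 on the plus strand, has one before 1 of its 2 listed starts.
Cdkn1a: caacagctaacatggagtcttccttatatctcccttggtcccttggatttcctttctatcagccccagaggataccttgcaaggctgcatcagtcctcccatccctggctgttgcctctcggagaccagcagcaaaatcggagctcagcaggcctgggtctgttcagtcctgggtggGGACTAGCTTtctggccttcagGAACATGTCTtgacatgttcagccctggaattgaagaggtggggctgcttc
Ccng1: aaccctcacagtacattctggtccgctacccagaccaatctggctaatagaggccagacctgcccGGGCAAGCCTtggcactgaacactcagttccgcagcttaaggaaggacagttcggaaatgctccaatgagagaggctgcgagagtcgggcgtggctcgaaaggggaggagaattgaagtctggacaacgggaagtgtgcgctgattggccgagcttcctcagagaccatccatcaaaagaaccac
Aen: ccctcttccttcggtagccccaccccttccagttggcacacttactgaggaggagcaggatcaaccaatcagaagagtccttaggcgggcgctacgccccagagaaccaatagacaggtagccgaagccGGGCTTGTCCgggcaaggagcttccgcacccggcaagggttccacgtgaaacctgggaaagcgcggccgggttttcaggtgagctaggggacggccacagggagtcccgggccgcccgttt

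A decamer was present in the 250 bases before a start in 7 of the 15 p53 targets with a promoter in the table (46.7%), and in 2216 of 27025 gene symbols (8.20%). A pair at most 13 bases apart was present in 1 target and in 20 of the 27025 symbols (0.0740%). The windows of Btg2 and Eda2r hold none of these letters. The list was made of known p53 targets, so a larger share was likely beforehand and says nothing about these arrays. Genes with several listed starts also had more chances of a match. A match is a description of the sequence, and binding was not measured.

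**Figure D2:**
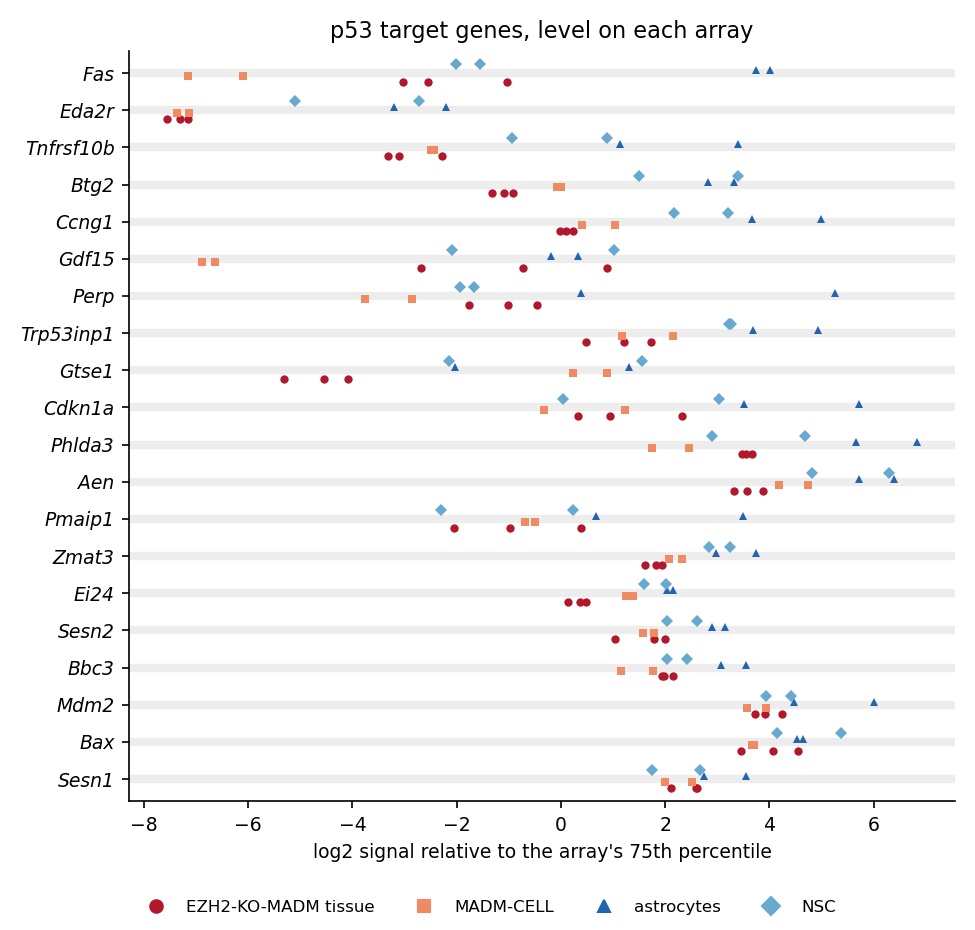
Levels of the 20 p53 target genes on each of the 9 arrays, as log2 signal relative to the array's 75th percentile (horizontal axis), ordered by the size of the difference. Each symbol is 1 array; the red and orange symbols are the 5 gliomas and the blue symbols the 4 normal arrays, and for the astrocytes (triangles) the distance from the gliomas is larger than for the NSC (diamonds) in most rows.

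Yap1 and Tead1, nuclear effectors of the Hippo pathway, were also lower. This pathway holds the co-activators YAP1 and TAZ out of the nucleus when cells are crowded, and both act through the TEAD family of transcription factors. Yap1 lay between 1.21 and 2.59 in the gliomas and between 3.58 and 4.72 in the normal cells (difference -2.41, SE 0.37, adjusted p = 0.0355). Tead1 lay between 0.47 and 1.50 against 2.08 to 3.50 (difference -2.12, SE 0.37, adjusted p = 0.0487). Among the cell arrays they differed by -2.55 and -1.64 (adjusted p = 0.0390 and 0.0548). Tead2 met the 4-difference criterion but missed the pooled threshold (difference -4.40, adjusted p = 0.0507), with its highest level in the NSC at 4.38 and 5.55, as did Ajuba, a scaffold that binds the LATS kinases (difference -4.25, adjusted p = 0.0596). Tead3 differed by -2.27 (adjusted p = 0.0936) and Wwtr1, which encodes TAZ, by -2.70, where tissue array 2 at 0.45 overlapped NSC array 2 at 0.28. The pathway list of 21 genes was drawn up after these values were seen. Of its members 2 were called lower (0.185% of all genes) and none higher. Wholly below the normal arrays lay 7 (3.8% of all genes), and the median was -0.95. The median was -0.70 among the cell arrays, -1.78 against the astrocytes alone and -0.52 against the NSC alone, which were not tested against each other.

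The 20 neural stem cell and radial glia genes had a median of -1.57 (-1.47 with dim values raised to the background limit, -2.12 among the cell arrays), beside -0.06 over all genes. Of them 3 were called lower, against 0.185% of all genes, and 6 lay wholly below the normal arrays, against 3.8%. Besides Egfr, the called members were transcription factors. Sox1 lay between -2.16 and -0.06 in the gliomas and between 1.00 and 2.56 in the normal cells (difference -3.10, SE 0.49, adjusted p = 0.0357). Nr2e1, the nuclear receptor TLX of adult neural stem cells, lay between -0.55 and 0.71 against 2.06 to 2.95 (difference -2.28, SE 0.35, adjusted p = 0.0352). For Sox1 and Nr2e1 the cell arrays alone gave -3.78 and -1.90 (adjusted p = 0.0119 and 0.0397). Sox2 lay at 1.57 to 2.28 on 4 glioma arrays, at -7.55, below the background limit, on glioma cell array 1, and at 2.64 to 3.83 in the normal cells; the difference was -3.18 over all arrays (adjusted p = 0.438) and that 1 array sets its size. Pax6 and Tnc differed by -2.99 and -2.61 without overlap or a call, whereas Hes5, a Notch target, had overlapping arrays (1.77, adjusted p = 0.662).

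Sox9, a transcription factor of astrocytes and their progenitors, lay between 0.36 and 1.62 in all gliomas and between 3.39 and 3.80 in all normal cells, a narrow range on both sides (difference -2.48, SE 0.31, adjusted p = 0.0204; -2.65 among the cell arrays, adjusted p = 0.0224). Gja1, the main astrocyte connexin, met the 4-difference criterion, at -2.99 to -1.73 in tissue, -7.39 and -7.15 in glioma cells and -0.75 to 2.17 in normal cells (pooled difference -5.10, adjusted p = 0.127). Aldh1l1, whose levels are given above, had no overlap and was not called (difference -5.23, adjusted p = 0.162). Of 22 astrocyte markers 1 was called, and the median was -0.78 over all arrays, -3.75 among the cell arrays and 0.29 for the tissue alone against the normal arrays; these differences were not tested against each other.

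Oligodendrocyte precursor genes leaned the other way, but no member was called. All 22 had a positive difference, 8 had all gliomas above all normal arrays against 2.85% of all genes, 12 passed an unadjusted p of 0.05, and the median was 2.43 (2.29 among the cell arrays). Cspg4, the NG2 proteoglycan, lay at 4.51 to 5.90 in the gliomas, at 2.52 and 2.68 in NSC and at -1.59 and 0.20 in astrocytes (difference 4.08, SE 0.85, adjusted p = 0.0755). Sox10 lay at 5.51 to 6.55 in the gliomas, against the NSC and astrocyte values given above (difference 6.01, SE 1.59, adjusted p = 0.128). Bcas1, a marker of early myelinating cells, lay at 5.80 to 6.70 in the gliomas and at 5.68 in NSC array 1, so the gap to the nearest normal array was narrow (difference 5.25, adjusted p = 0.135). Gpr17, a receptor of committed precursors, was at 5.37 to 7.97 in the gliomas, 7.55 and 3.99 in the NSC and -6.47 and -7.10 in the astrocytes. The mean of the list was 3.07 to 3.93 in the gliomas, 2.96 and 1.39 in the NSC and -0.33 and -1.13 in the astrocytes. The list median was 3.46 against the astrocytes alone and 1.15 against the NSC alone, a difference that was not itself tested.

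Markers of other cells give the frame for these lists. Mature oligodendrocyte markers had a median of 2.71, but 0.88 among the cell arrays; neuron markers 1.70 and 0.06; endothelial and pericyte markers 1.73 (1.60 with dim values raised) and -0.28; and red blood cell transcripts 4.20 (3.77 with dim values raised) and 0.07. No member of these 4 lists was called, and each median was nearer 0 without the tissue arrays. Of 10 red blood cell transcripts 6 were tested, and these averaged -5.80 to -5.18 on the cell arrays, near the background limit. Members that entered through the tissue alone were bound to lean higher, so the filter partly fixes the median of that list. The summed endothelial list averaged -0.37 to 0.21 in tissue and -4.26 to -1.87 on all other arrays. Microglia and macrophage markers went from a median of -0.65 over all arrays to -4.69 among the cell arrays and fibroblast markers from -2.26 to -4.24. The microglia list was high in tissue and astrocytes. The fibroblast list averaged highest in the astrocytes, and tissue array 3 at -0.78 lay below NSC array 1 at -0.22. The part of these cells in the results above was not tested.

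**Figure D3:**
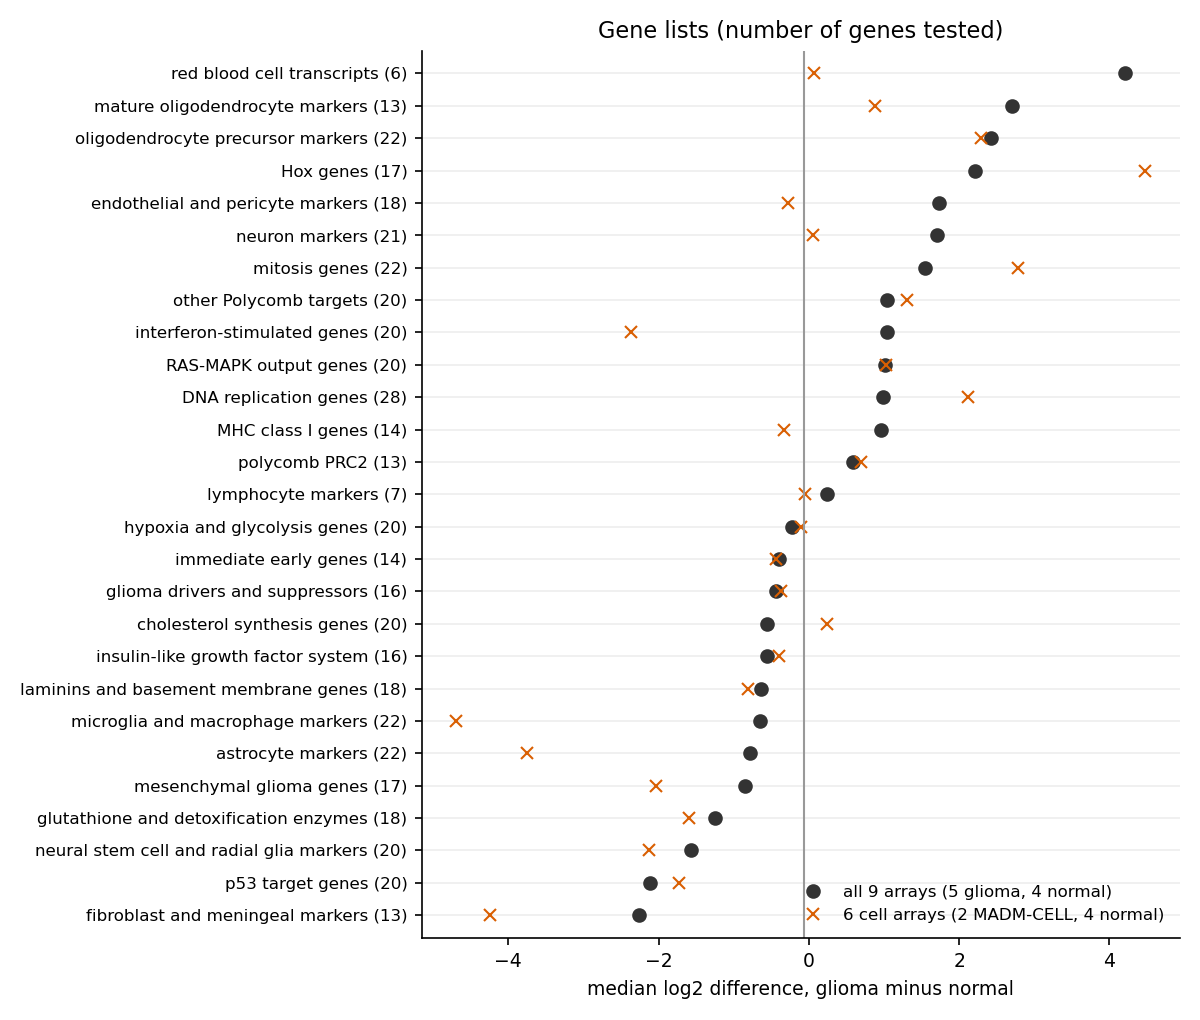
Median log2 difference, gliomas minus normal arrays, of the 27 gene lists (number of genes tested in brackets). Filled circles are all 9 arrays, crosses the 6 cell arrays, and the vertical line is the median of all genes at -0.06; the circle and cross lie close for oligodendrocyte precursor markers (2.43 and 2.29) and p53 targets (-2.11 and -1.72) and far apart for red blood cell transcripts (4.20 and 0.07) and microglia and macrophage markers (-0.65 and -4.69).

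Transcription factors that pattern the brain along its length gave some of the sharpest differences. Foxb1, a forkhead factor of the diencephalon and hindbrain, lay between -2.75 and -2.25 on the normal arrays and between -7.33 and -6.91 on the glioma arrays, where it was not above background on any. In the main processing it was at least 9.15-fold lower (measured difference -4.65, SE 0.21, adjusted p = 7.51e-05), the smallest adjusted p of the genes named. It differed by -4.55 among the cell arrays (adjusted p = 0.00604). The smallest difference of Foxb1 under another processing setting was -1.31. Otx1, a forebrain and midbrain homeobox factor, was likewise above background on every normal array, with the NSC at -2.49 and -2.06, and on no glioma array, at least 6.45-fold lower (adjusted p = 0.00982), with a measured difference of -4.35 among the cell arrays (adjusted p = 0.00773). Its relative Otx2 lay at 0.45 to 2.37 in normal cells, at -3.18, -0.07 and -2.87 in tissue and at -7.04 and -5.75 in glioma cells, and met the 4-difference criterion only (pooled difference -5.45, adjusted p = 0.0953; another probe of the gene differed by -0.61). Dlx6, a homeobox factor of the ventral forebrain, went in the other direction: it lay at -3.18 to -2.32 in the gliomas and at -5.64 to -4.15 in normal cells, and was higher by 2.35 (SE 0.35, adjusted p = 0.0337; 2.23 among the cell arrays). Of 27 patterning factors tested, from a list drawn up after these values were seen, 3 were called lower and 1 higher, against 0.185% and 0.398% of all genes, with a median of -1.13.

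Hox genes, which pattern the hindbrain and spinal cord and are classical targets of Polycomb repression, were mostly dim: 17 of 39 could be tested, none was called, and 8 were higher and 1 lower at an unadjusted p of 0.05. The median difference was 2.21, or 1.45 with dim values raised to the background limit, and 4.48 among the cell arrays. The list averaged -6.35 to -4.10 on the normal arrays. A gene entered when any group had its probe well above background throughout. Members that entered through a glioma group alone were bound to lean higher. The filter thus partly fixes these counts and medians, which give no support by themselves. Hoxa5 lay at -4.94, -1.99 and -0.37 in the Ezh2-deleted tissue, at -0.48 and 0.38 in glioma cells, and at -7.89 to -5.21 in normal cells (difference 5.33, SE 1.06, adjusted p = 0.0649); tissue array 1 stood just above astrocyte array 1 at -5.21. Among 20 other Polycomb targets Tbx1 alone was called, and Pou4f1, a sensory neuron homeobox factor, met the 4-difference criterion at -1.99 to 0.44 in tissue, 2.43 and 2.49 in glioma cells and -4.01 to -3.08 in normal cells. No PRC2 subunit of 13 was called, and their median was 0.59. Ezh2 loss is labelled in the tissue alone, and the genotype of the glioma cells is not given.

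The beta cluster of protocadherins, neighbouring genes on chromosome 18 that each encode a single-exon neuronal adhesion protein and are chosen stochastically in single neurons, contained 6 called genes of 22 tested, all higher, against 0.398% of all genes in that direction. Pcdhb5 lay at -1.93, -1.62 and -1.33 in tissue and -0.85 and -0.52 in glioma cells, against -5.59 to -4.53 in normal cells (difference 3.93, SE 0.36, adjusted p = 0.00488). Pcdhb10 lay at 0.86 to 1.68 in the gliomas against -4.21 to -1.38 (difference 4.09, SE 0.51, adjusted p = 0.0181). In the cell arrays alone Pcdhb5 and Pcdhb10 differed by 4.49 and 4.34 (adjusted p = 0.00951 and 0.0170). Pcdhb2, Pcdhb3, Pcdhb7 and Pcdhb9 were higher by 4.25, 3.84, 2.78 and 3.61. Other members of the cluster differed little: Pcdhb18, Pcdhb19, Pcdhb20 and Pcdhb21 by 0.01, -0.15, 0.17 and 0.03, of which the first and last turn negative with median centring. The median of the 22 was 1.42. In the alpha cluster Pcdha4 and Pcdha8 were called among 6 tested, by 3.32 and 2.42, and in the gamma cluster none of 6 was called, with a median of -0.18. The beta genes are close paralogs, and whether their probes share signal was not tested; the 3 lists were drawn up after the values were seen.

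**Figure D4:**
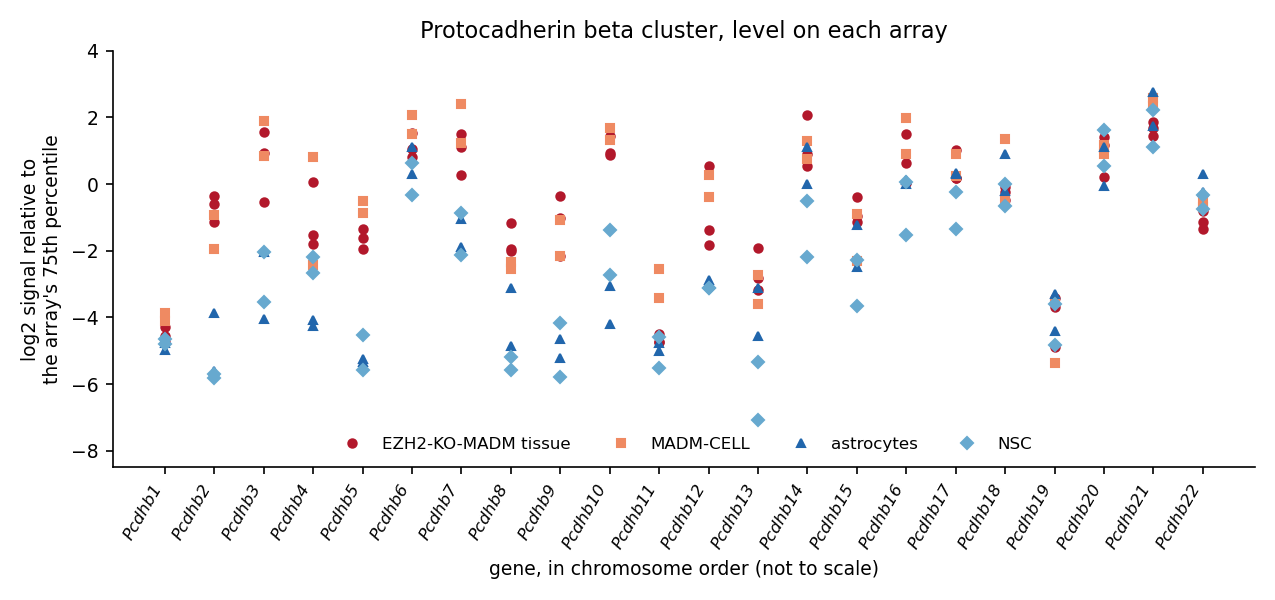
Level of each protocadherin beta gene, in chromosome order (horizontal axis, not to scale), on each of the 9 arrays, as log2 signal relative to the array's 75th percentile (vertical axis). Each symbol is 1 array; the red and orange glioma symbols lie above the blue normal symbols for Pcdhb2, Pcdhb3, Pcdhb5, Pcdhb7, Pcdhb9 and Pcdhb10, and overlap them for Pcdhb18 to Pcdhb21.

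When the genome was read in windows of 11 neighbouring tested genes, 4 of 24881 windows held 8 genes with every glioma above every normal array, the highest number found. Some were in the protocadherin beta cluster and the others on chromosome 7. There the genes from Arhgap33 to Cox6b1 share no family, whereas many genes further ahead in the stretch are zinc finger (Zfp) genes. The window chr7:31307611-31411071, from Arhgap33 to Cox6b1, had a positive difference for 11 of 11 genes and a median of 2.95. Arhgap33, a GTPase-activating protein, lay at 5.48, 2.12 and 6.46 in tissue, at 4.83 and 5.28 in glioma cells, at -2.30 and -2.80 in astrocytes and at 0.63 and 0.18 in NSC (difference 5.90, SE 1.00, adjusted p = 0.0441). Lin37, a subunit of the DREAM complex that represses cell-cycle genes, lay at 6.24, 3.45 and 6.74 in tissue and 5.27 and 5.55 in glioma cells, against 1.34 to 1.79 in normal cells (difference 3.88, SE 0.59, adjusted p = 0.0352). The cell arrays alone gave differences for Arhgap33 and Lin37 of 6.12 and 3.84 (adjusted p = 0.00576 and 0.00813). Kirrel2, an adhesion protein related to nephrin, was above background on all gliomas and on no normal array, at least 9.96-fold higher (adjusted p = 0.0472). Kmt2b, a histone methyltransferase of active genes, Psenen, a subunit of gamma-secretase, and Aplp1, a relative of the amyloid precursor protein, differed by 2.67, 3.01 and 4.37 without overlap or a call (adjusted p = 0.0953, 0.0530 and 0.0515). Proser3, which lies between Arhgap33 and Lin37, differed by 0.22, and its levels were between 5.78 and 6.39 on all arrays.

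How far the stretch extended differed from one glioma array to another. From Aplp1 to Igflr1 (12 genes, chr7:31220054-31352975) the median difference from the mean of the normal arrays was 3.83, 1.52 and 3.56 in tissue arrays 1 to 3. It was 2.87 and 3.25 in glioma cell arrays 1 and 2, so this block was raised in all 5. Running medians of 15 genes were taken over the whole stretch, not this block alone. They peaked at Prodh2, Lsr and Zfp420 in tissue arrays 1 to 3 and at Igflr1 in both glioma cell arrays. Elsewhere in the genome they rose above that peak at 45 positions on tissue array 2 and at 5 on each glioma cell array. On tissue arrays 1 and 3 they did so at 0 positions. A block of 18 genes, from Zfp74 to Wdr62 (chr7:30719262-31025218), lies ahead of the Aplp1 to Igflr1 block without adjoining it. There the median difference was 4.41 in tissue array 3 and 3.76 in glioma cell array 2. It was 0.85, -0.17 and 0.11 in the other gliomas. Genes between these blocks belong to neither. Among them, glioma cell array 1 was raised at Alkbh6 and Syne4 (2.03 and 3.09) but not at Clip3 (-0.87). Ahead of Zfp74, tissue array 3 and glioma cell array 2 were already raised at Zfp84 (5.11 and 3.81). In the 10 genes after Igflr1, from Kmt2b to Tmem147 (chr7:31353906-31513108), the median difference was 0.91, 1.83 and 2.62 in tissue and 3.46 and 4.35 in the glioma cells. In the 11 genes from Usf2 to Gramd1a (chr7:31731077-31915205) it was lowest in glioma cell array 1 at 0.51 and highest in glioma cell array 2 at 3.02. The normal arrays, whose own mean is subtracted, stayed between -0.60 and 0.93 in all 4 blocks. Zfp260, in the first block, shows the same division in single values: it lay at 4.81, 3.54 and 7.92 in tissue, 3.60 and 7.33 in glioma cells and 3.29 to 4.18 in normal cells. The limits of the blocks were set after the values were seen, the arrays give RNA levels only, and the cause of the stretch was not tested.

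**Figure D5:**
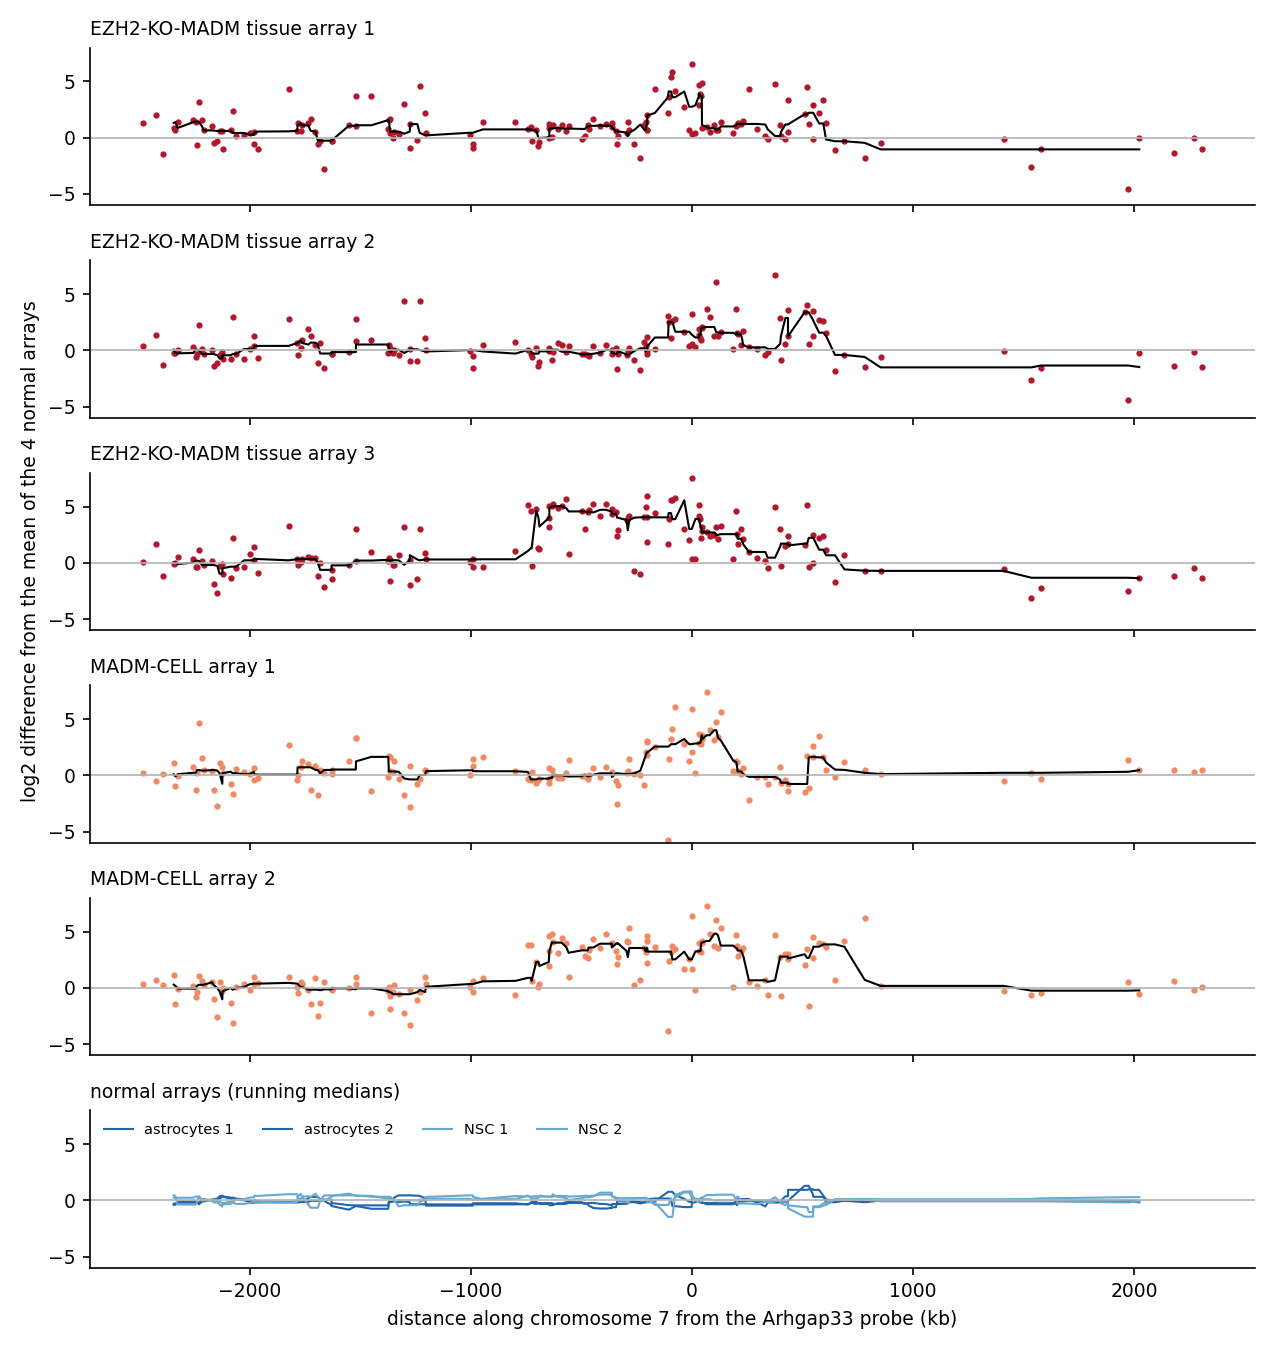
Difference of each gene from the mean of the 4 normal arrays (vertical axis, log2) against distance along chromosome 7 from the Arhgap33 probe (horizontal axis, kb), with 1 panel for each glioma array and a last panel for the normal arrays. Points are genes and lines the running median of 7 genes; a raised stretch lies at and just after 0 in all 5 gliomas and begins earlier in tissue array 3 and glioma cell array 2 than in the others.

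Genes of dividing cells overlapped between the sides. The 22 mitosis genes had a median of 1.54 and the 28 DNA replication genes of 0.99, none was called and none passed an unadjusted p of 0.05. Top2a, the mitotic topoisomerase, lay at 1.18 to 1.74 in tissue and 3.88 and 3.69 in glioma cells, at -1.77 and -0.88 in astrocytes, and at 0.52 and 3.96 in the 2 NSC arrays, of which the second was level with the glioma cells. The 2 NSC arrays thus differed by more than the tissue and astrocyte means did. Of the 18 glutathione and detoxification enzymes, 1 was called: Gpx8, a peroxidase of the endoplasmic reticulum, lay between -1.37 and 0.93 in the gliomas and between 2.78 and 5.53 in the normal cells (difference -4.18, SE 0.71, adjusted p = 0.0443), and the list median was -1.25. Igf2bp1, an RNA-binding protein of fetal and stem cells, was above background on no glioma array and on all normal arrays, at -5.11 and -3.88 in astrocytes and -1.46 and 0.14 in NSC, and met the 4-difference criterion with a bound of at least 8.65-fold lower (pooled adjusted p = 0.0706).

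Over the 27 lists, 9 distinct members of 471 tested were called and 115 had an unadjusted p under 0.05, beside 148 and 4040 of all 25398 genes. Apart from the lists described, none of the glioma driver genes other than Egfr was called among 16, none of 20 RAS-MAPK output genes (median 1.01, and 1.03 among the cell arrays), and of 14 immediate early genes Btg2 alone. Other genes called that no list holds, and that were singled out after their values were seen, included Nt5e, the ecto-enzyme CD73 that makes adenosine, at -0.61 to 1.55 in the gliomas against -4.53 to -2.79 (difference 4.35, SE 0.52, adjusted p = 0.0174). Gria4, a glutamate receptor subunit, lay at 3.09 to 4.34 against -0.82 to 1.47 (difference 3.24, SE 0.51, adjusted p = 0.0355), and Kcnma1, a calcium-activated potassium channel, at -0.09 to 1.59 against -4.54 to -1.47 (difference 3.56, SE 0.61, adjusted p = 0.0456). Among lower genes named by rank, Dglucy and Ttc23 differed by -4.22 and -3.36 (adjusted p = 0.0160 each), Lratd1 by -4.54 (adjusted p = 0.0491), and Prdm16, a zinc finger factor of stem cells and brown fat, by -5.07 (adjusted p = 0.0784).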

How the data were processed

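The deposited scanner files of 9 single-colour Agilent arrays hold 1 processed intensity per spot (background-subtracted per the file headers; Feature Extraction 10.7.3.1 per the submitters' processing notes, 10.7.1.1 for the 6 cell arrays per the file headers). Control and outlier spots were left out, spots of a probe averaged, log2 taken and each array's 75th percentile subtracted; 55666 probes remained. The authors' deposited value table holds log2 values that matched unscaled log2 processed intensity within 0.01 for 99.2% to 100% of probes per array (column medians 5.09 to 6.29); it served as an alternative. Genes were named by accession, symbol or synonym through RefSeq (27232, 3579 and 565 probes) and by the file's name for 24290. A gene was tested through its brightest probe, if some group had that probe well above background throughout.

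Differences were tested with limma 3.58.1 (R 4.3.3; lmFit and eBayes, two-sided, Benjamini-Hochberg over 25398 genes): a 2-group fit (7 residual degrees of freedom), a 4-group fit (5) for the 4 group differences, and a fit of the 6 cell arrays. The code was tested on simulated data. Bounds take, per array, the lowest signal well above background in the main processing. Named genes are Ezh2, Trp53, Nf1 and Pdgfra, the 10 in each direction with the largest smallest group difference, the 3 largest bounds in each direction, for each list the 2 largest calls each way (without a call, the 2 brightest); further genes in the text, the chromosome 7 blocks and 6 lists (Hippo, patterning, ErbB and the protocadherins) were chosen after their values were seen. Values of a few genes under this rule are not reported here. The members and all lists were chosen with earlier results of these data known. Lists are described by counts and medians, with no set test. Promoters are RefSeq's, GRCm38.p6, for 15 of 20 p53 targets. Python 3.11.15 and matplotlib 3.10.9 made the tables and plots.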

Additional observations from a re-analysis of the deposited data

Results flagged for a closer look

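In 288 checks of the named genes, each over the 5 glioma or the 4 normal arrays, 12 single arrays stood further from the rest than Dixon's 95% limit allows; about 1 check in 20 does so by chance. All values are log2 levels relative to the array's 75th percentile. On the glioma side, Sox2 lay at -7.55 on glioma cell array 1 with the nearest other glioma at 1.57, Vwf at -1.97 on glioma cell array 2, Proser3 at 5.78 on glioma cell array 2, Dlx5 at -3.70 on glioma cell array 1, Otx1 at -6.53 and Wwtr1 at 0.45 on tissue array 2. On the normal side, Neu4 lay at -3.54 on NSC array 1, Pcdhb2 at -3.88 and Agrn at 4.48 on astrocyte array 2, and Cox7b2 at -7.17, Etv5 at 6.68 and Gapdh at 8.55 on NSC array 2. The Sox2, Otx1 and Cox7b2 values lie below the dimmest signal counted as above background on those arrays. The causes were not tested.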

How the results depend on the processing

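No direction of the 143 named genes reversed where a call was at stake: of 2387 values under other settings, 2039 kept their direction and side of the threshold, 311 lost the call and 37 gained one. The count of 148 called genes became 2942 with astrocytes alone as normal, 54 with NSC alone, 1730 with tissue alone as glioma, 3227 in the 4-group fit, 74 with the unscaled deposited values, 309 with slide as a fixed block and 66 with slide as a random block (correlation 0.2589). It was 12 to 239 when 1 array was left out. Median centring, quantile normalization, normexp, other filters and probe averaging gave 105 to 178. Slide divides tissue from cells, so with slide as a fixed block the glioma difference comes from the 6 cell arrays alone. The tissue arrays then add only to the estimate of the spread. The 98 genes past all 4 differences became 160 with the cell arrays alone, 53 without a filter, 54 with a stricter one, 4 when the largest p was adjusted, and 43 to 99 with 1 array left out. With the cell arrays alone, only the differences of the glioma cells from the astrocytes and from the NSC remained. The 160 genes passed those alone, a looser criterion, so this count is not comparable with the 98. The 1690 genes without overlap became 1862 to 3152 with 1 array left out. Called list members, 9 in all, became 5 with the unscaled values, 23 with slide as a fixed block and 0 to 18 with 1 array left out; the 0, without astrocyte array 1, stands beside 92 at an unadjusted p under 0.05. Ezh2 was called against astrocytes alone (2.45) and ranged from 0.35 to 1.67 with 1 array left out. The 1648 genes of the 6 cell arrays became 812 with a stricter filter and 442 to 1617 with 1 array left out. Where a group was left with 1 array, it was assumed to vary like the others. Deviations of same-numbered arrays from their group means had correlations of -0.16 to 0.12. In a group of 2 arrays these deviations mirror each other, so such few values cannot settle whether the numbers pair the arrays. With the replicate block limma called 3 genes (2495 at an unadjusted p under 0.05), 37 past all 4 differences, and 0 list members (81 unadjusted). Normexp used median signals. The causes of these shifts were not tested.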

Other observations

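Interferon-stimulated genes and MHC class I genes separated the arrays along another line than tumour and normal. The 20 interferon-stimulated genes averaged 2.33, 3.64 and 2.12 in tumour tissue and 3.02 and 1.47 in astrocytes, against -2.38 and -3.08 in glioma cells and -3.37 and -4.15 in NSC. The 14 MHC class I genes averaged 2.81 to 3.94 in tissue, 3.67 and 2.70 in astrocytes, 0.94 and 1.11 in glioma cells and -0.36 and -0.78 in NSC. No member of either list was called between the pooled gliomas and the pooled normal cells, and the medians of 1.04 and 0.96 became -2.36 and -0.33 among the 6 cell arrays. The mesenchymal glioma genes averaged 3.72 and 4.54 in astrocytes, -0.38 and 0.08 in NSC, 0.72 to 2.11 in tissue and -0.30 and -0.90 in glioma cells, with a median of -0.85 and no member called.

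In 394 genes the tissue arrays all lay on one side of the 4 normal arrays and the glioma cell arrays all on the other, 116 of them with the tissue higher; this division was not tested. Chromosome 11 held 16 of the 189 genes called by either criterion (8.47%) and 1795 of the genes tested (7.07%). The remaining lists had no called member other than those named in the text, and medians of -0.23 for hypoxia and glycolysis genes, -0.55 for cholesterol synthesis genes, -0.64 for laminins and basement membrane genes, -0.56 for the insulin-like growth factor system, -0.44 for glioma drivers and suppressors, -0.40 for immediate early genes, 1.05 for the Polycomb targets outside the Hox genes and 0.24 for the 7 lymphocyte markers tested.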
